A study of Homo sapiens with 6 samples.

Results

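The carcinoembryonic antigen (CEA) family was followed in tumours grown as xenografts from the human liver cancer cell line MHCC97L. The 5 genes CEACAM1, CEACAM5, CEACAM6, CEACAM7 and CEACAM19 were taken by gene symbol from tables of 60725 rows, and each symbol stood on a single row in all 6 libraries. The tumours had been given recombinant human lumican (rhLUM, 3 libraries) or belonged to the control group (Ctrl, 3 libraries). Lumican is a secreted proteoglycan of the extracellular matrix. The labels leave out the dose, route, duration, control treatment, host animal and its age. They do not say if each library is a tumour of its own, so p-values reflect only how these samples vary, possibly for technical reasons. All tumours come from 1 cell line. Libraries correlated at 0.978 to 0.983 within groups and at 0.928 to 0.935 between groups (Pearson r across genes, which are not independent replicates).

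CEACAM proteins are immunoglobulin-like adhesion molecules of the epithelial cell surface that bind one another on neighbouring cells. CEACAM5, which is CEA itself, CEACAM6 and CEACAM7 are held in the membrane by a glycosylphosphatidylinositol (GPI) anchor, whereas CEACAM1 and CEACAM19 span it. CEACAM1 is the family member of the healthy hepatocyte, where it sits at the bile canaliculus, and its long form carries tyrosine motifs that recruit phosphatases. CEACAM5 and CEACAM6 belong to the gut epithelium and to carcinomas, and CEA in serum is a tumour marker.

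The genes were chosen by family name, with their TPM values and rhLUM-minus-Ctrl differences in these same libraries known, so the values of rhLUM against Ctrl are a description of each gene and carry no test. Values are in TPM, RSEM's length-corrected transcript share of each library, which divide by transcript length and allow levels of different genes to be set side by side. Log2 fold changes are rhLUM minus Ctrl on log2(TPM + 1), with the standard error (SE) of a limma fit over the 14781 genes that averaged 1 TPM or more. On that scale the median gene stood at 0.16. A rescaling by median-of-ratios moved this median by -0.15 and one without mitochondrial genes moved it by -0.10, so differences of that size depend on scaling.

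All 5 members lie on chromosome 19. RefSeq start regions (GRCh38.p14, 250 bases before to 50 bases after the start) matched 4 of them by symbol. They are shown because 2 of these genes were higher and 1 lower although their RefSeq start regions are alike. GENCODE, used below for gene positions and for distances to neighbouring genes, places these starts elsewhere. For CEACAM6 the start is 41755530 in RefSeq and 41750977 in GENCODE, and for CEACAM7 41688270 and 41706976. For CEACAM1 it is 42528481 and 42561234, and for CEACAM5 41708626 and 41708585. Which start is used in these tumours was not tested. Capitals mark every match to the 6 motifs searched. CEACAM6 lies at chr19:41755280-41755579 on the plus strand, CEACAM5 at chr19:41708376-41708675 on the plus strand, CEACAM7 at chr19:41688221-41688520 on the minus strand and CEACAM1 at chr19:42528432-42528731 on the minus strand.
CEACAM6: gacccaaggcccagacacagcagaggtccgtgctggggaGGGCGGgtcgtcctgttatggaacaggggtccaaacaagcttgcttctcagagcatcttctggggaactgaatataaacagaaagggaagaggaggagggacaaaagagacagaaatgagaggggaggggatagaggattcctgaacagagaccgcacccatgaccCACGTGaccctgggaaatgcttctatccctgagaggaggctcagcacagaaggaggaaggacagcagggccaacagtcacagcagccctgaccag
CEACAM5: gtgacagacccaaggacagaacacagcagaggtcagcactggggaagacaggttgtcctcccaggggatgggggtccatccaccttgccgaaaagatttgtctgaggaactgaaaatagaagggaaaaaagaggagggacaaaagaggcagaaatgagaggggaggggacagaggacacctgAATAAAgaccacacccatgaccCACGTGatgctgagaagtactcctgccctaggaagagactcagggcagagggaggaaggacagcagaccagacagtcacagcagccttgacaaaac
CEACAM7: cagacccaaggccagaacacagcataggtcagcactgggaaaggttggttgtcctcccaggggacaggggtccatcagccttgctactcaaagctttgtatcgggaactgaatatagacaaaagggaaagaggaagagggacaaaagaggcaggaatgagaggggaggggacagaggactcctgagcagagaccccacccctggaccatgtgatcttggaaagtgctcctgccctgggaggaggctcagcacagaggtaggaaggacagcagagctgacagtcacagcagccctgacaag
CEACAM1: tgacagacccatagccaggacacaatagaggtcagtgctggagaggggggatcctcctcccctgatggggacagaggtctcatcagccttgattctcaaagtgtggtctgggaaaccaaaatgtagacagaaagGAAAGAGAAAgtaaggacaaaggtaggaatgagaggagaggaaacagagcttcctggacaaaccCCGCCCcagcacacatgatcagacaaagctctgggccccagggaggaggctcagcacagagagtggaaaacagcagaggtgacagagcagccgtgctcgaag

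In global alignments the CEACAM5 region was 84.7% identical to that of CEACAM7 and 78.8% identical to that of CEACAM6, and CEACAM6 and CEACAM7 were 81.5% identical. CEACAM1 was 72.0% identical to CEACAM5, 74.8% to CEACAM6 and 77.1% to CEACAM7. The E box CACGTG, the letters bound by upstream stimulatory factors such as USF1, stood in CEACAM5 from base -46 and in CEACAM6 from base -45, counted from the start. Opposite it the aligned bases were CATGTG in CEACAM7 and CACATG in CEACAM1. Of the 35116 RefSeq start regions of this length, 7.26% held CACGTG. The GC box GGGCGG was in CEACAM6 (-211) and, on the other strand, in CEACAM1 (-52), against 45.0% of all regions. The interferon-type motif (GAAA, any 2 bases, GAAA) was in CEACAM1 alone of these 4 (-116), against 3.57% of all regions, and the CDX-type TTTATT was in CEACAM5 on the other strand (-68), against 17.4%. AP-1 letters TGANTCA (7.71% of all regions) and the NF-kB-type motif (GGGA, any 2 bases, TTCC, 1.61%) were in none of the 4. Both strands were searched, no matches overlapped, and a match describes letters and shows no binding.

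CEACAM6, on chromosome 19 at 41750977 to 41772208 (GENCODE release 29, GRCh38, plus strand), encodes a GPI-anchored adhesion protein and was the most abundant member in every library. It stood at 1793, 1772 and 1781 TPM in rhLUM libraries A, B and C, against 478, 480 and 476 TPM in Ctrl libraries A, B and C. The groups lay far apart and each varied by under 1% (coefficient of variation, CV, 0.579% in rhLUM and 0.478% in Ctrl). Genes within 1.5-fold of its level had a median CV of 1.31% in rhLUM (76 genes) and 1.80% in Ctrl (205 genes). The ratio of means was 3.73 and the log2 fold change was 1.90 (SE 0.01, n = 3 per group). By mean TPM, CEACAM6 ranked 71 in rhLUM and 247 in Ctrl among the 14781 tested genes. Its log2 fold change ranked 69 from the highest.

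CEACAM5, at 41708585 to 41729798 on the plus strand, encodes CEA. It stood at 459, 456 and 441 TPM in rhLUM libraries, against 154, 148 and 151 TPM in Ctrl libraries. As with CEACAM6 the groups did not overlap. Means were 452 ± 9.56 TPM in rhLUM and 151 ± 3.41 TPM in Ctrl (SD, n = 3), a ratio of 2.99 and a log2 fold change of 1.58 (SE 0.03). By mean TPM it ranked 279 in rhLUM and 788 in Ctrl, and 1.12% of tested genes had a higher fold change.

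CEACAM7, at 41673307 to 41706976 on the minus strand, encodes a GPI-anchored protein known from the colon epithelium. It was listed at 0, 0.12 and 0.11 TPM in rhLUM libraries, against 2.34, 2.23 and 2.20 TPM in Ctrl libraries. It was the rarest of the 5, and passed the filter on low values through the Ctrl group alone, whose mean was 2.26 TPM. The log2 fold change was -1.60 (SE 0.16) with a pseudocount of 1 and -3.82 (SE 0.54) with a pseudocount of 0.1, so its size rests on that choice. No ratio of means is given because 1 rhLUM library is listed at 0. CEACAM7 and CEACAM5 are neighbours on opposite strands, 20.4 kb apart between RefSeq gene bodies and 1.61 kb apart in GENCODE, and their differences had opposite signs.

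CEACAM1, at 42507304 to 42561234 on the minus strand, differed least. It stood at 84.9, 85.2 and 84.4 TPM in rhLUM libraries, against 89.4, 92.8 and 80.3 TPM in Ctrl libraries. The rhLUM values lay inside the range of the Ctrl values, which were wider apart (CV 0.509% in rhLUM and 7.37% in Ctrl). Means were 84.9 ± 0.43 TPM in rhLUM and 87.5 ± 6.45 TPM in Ctrl (SD, n = 3), with a log2 fold change of -0.04 (SE 0.05). After median-of-ratios scaling the log2 fold change was -0.21 (SE 0.05), and without mitochondrial genes it was -0.15 (SE 0.05). The tables give 1 value per gene, so the long and short forms of CEACAM1 could not be told apart.

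CEACAM19, at 44662278 to 44684359 on the plus strand, encodes a less studied member. It stood at 2.92, 2.35 and 3.32 TPM in rhLUM libraries, against 4.03, 3.43 and 4.34 TPM in Ctrl libraries. The groups did not overlap, but the gap was narrow: the highest rhLUM library was at 3.32 TPM and the lowest Ctrl library at 3.43 TPM. Means were 2.86 ± 0.49 TPM in rhLUM and 3.93 ± 0.46 TPM in Ctrl (SD, n = 3), a ratio of 0.728 and a log2 fold change of -0.36 (SE 0.13). Within groups it varied by 17.0% in rhLUM and 11.8% in Ctrl, close to the median of genes of like level (15.3% and 10.7%).

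**Figure D1:**
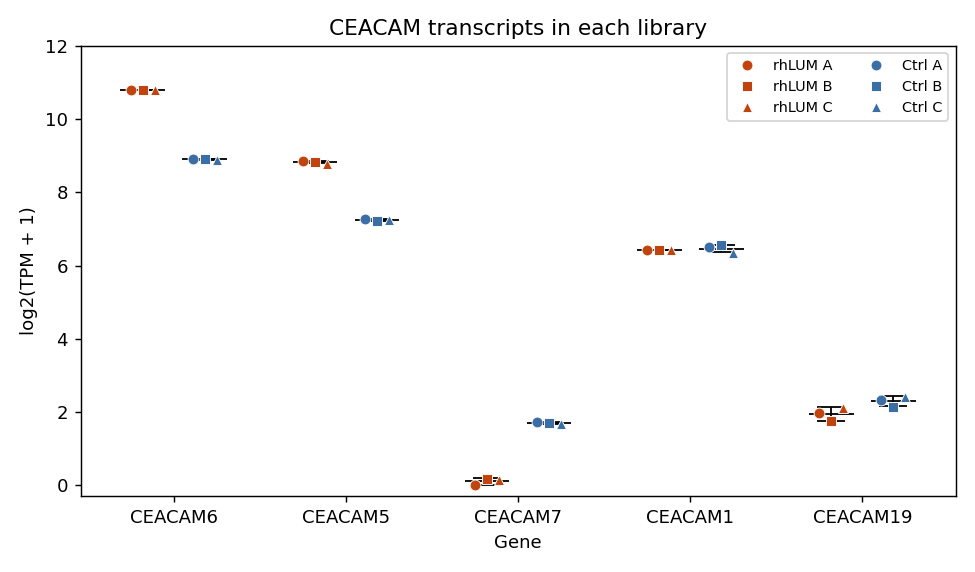
Level of each CEACAM gene as log2(TPM + 1) (vertical axis) in the rhLUM libraries (left of each pair) and the Ctrl libraries (right), with 1 point per library and black bars for the mean and SD of 3. CEACAM6 and CEACAM5 sit higher in rhLUM, CEACAM7 and CEACAM19 lower, and the CEACAM1 groups overlap.

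CEACAM6 and CEACAM5 were higher in rhLUM, CEACAM7 and CEACAM19 lower, and the groups overlapped for CEACAM1. The adjusted p of the fit over all genes was under 0.05 for 4 of the 5 members, against 66.8% of all genes tested, and the groups did not overlap for 4 of 5, against 71.4% of all genes. By direction, 2 members were past the threshold and higher (44.5% of all genes) and 2 lower (22.3%), and groups that did not overlap were higher for 2 (47.0% of all genes) and lower for 2 (24.3%). Since the members were chosen with this contrast known, nothing is read from these counts. The count of members past the threshold in the lower direction was 2, and it was 1 without Ctrl A, without rhLUM A or without rhLUM B, where CEACAM19 did not pass. Without Ctrl C CEACAM1 passed in its place. After median-of-ratios scaling, and without mitochondrial genes, the count was 3, because CEACAM1 passed too. The order of levels was the same in all 6 libraries for the 3 abundant genes: CEACAM6, then CEACAM5, then CEACAM1, with no overlap between neighbours in that order. CEACAM19 came next in all 6 and CEACAM7 last, again with no overlap within either group.

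**Figure D2:**
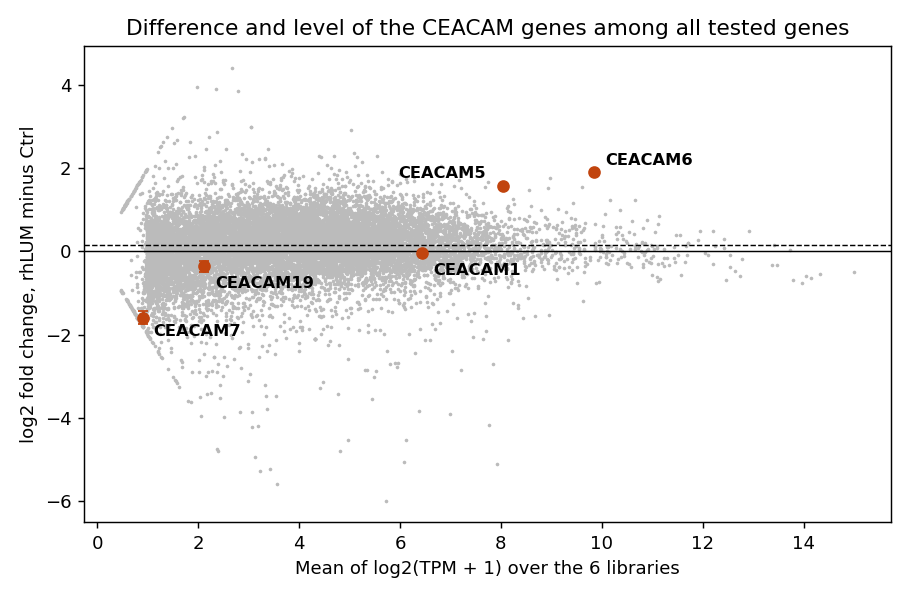
Log2 fold change, rhLUM minus Ctrl (vertical axis), against the mean of log2(TPM + 1) over the 6 libraries (horizontal axis) for the 14781 tested genes in grey, with the 5 CEACAM genes in red and bars for their SE. The dashed line is the median gene at 0.16. CEACAM6 (1.90) and CEACAM5 (1.58) stand above most genes of their level, and CEACAM7 (-1.60) lies at the low end of expression.

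Ratios within a library do not depend on how that library was scaled. CEACAM6 exceeded CEACAM5 by 3.94 ± 0.083 times in rhLUM and by 3.17 ± 0.080 times in Ctrl (SD, n = 3). These ranges, 3.88 to 4.04 and 3.10 to 3.25, did not overlap, so CEACAM6 differed by more than CEACAM5 in these libraries. The ratio of CEACAM6 to CEACAM1 ran from 20.8 to 21.1 in rhLUM and from 5.18 to 5.92 in Ctrl, and that of CEACAM5 to CEACAM1 was 5.33 ± 0.090 in rhLUM and 1.73 ± 0.14 in Ctrl. The ratio of CEACAM1 to CEACAM19 overlapped between groups, at 25.4 to 36.3 in rhLUM and 18.5 to 27.1 in Ctrl. Together the 5 genes summed to 2322 ± 15.6 TPM in rhLUM and 723 ± 8.08 TPM in Ctrl. Of that sum CEACAM6 held 76.7% in rhLUM and 66.2% in Ctrl, CEACAM5 held 19.5% and 20.9%, and CEACAM1 held 3.65% and 12.1%, in the same order of groups. CEACAM1 was thus a smaller share of CEACAM transcripts in rhLUM, at a level that overlapped that of Ctrl in TPM as deposited. That overlap depends on scaling. The log2 fold change of CEACAM1 was -0.21 after median-of-ratios scaling and -0.15 without mitochondrial genes, and both were past the threshold. In tissue of this kind, fewer cells of a type and less RNA per cell cannot be told apart.

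**Figure D3:**
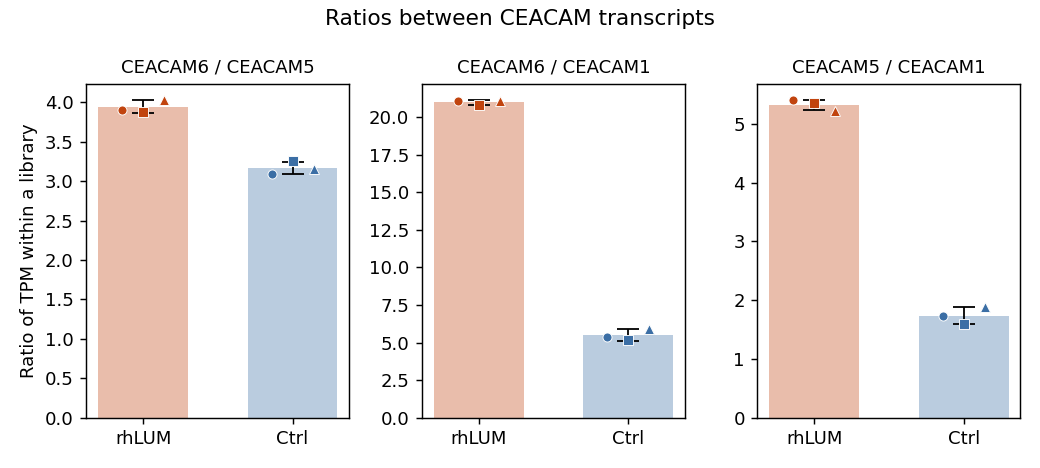
Ratio of the TPM of 2 CEACAM genes within each library (vertical axes, each from 0), for rhLUM (left bars) and Ctrl (right bars), with 1 point per library, bars for the mean and lines for the SD of 3. All 3 ratios are higher in rhLUM, such as 5.33 against 1.73 for CEACAM5 over CEACAM1.

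The rest of the family was at or near 0. Of 7 other CEACAM genes, CEACAM4 and CEACAM21 were listed at 0 in all 6 libraries and none reached 1 TPM. CEACAM3, a granulocyte receptor gene whose RefSeq body begins 24.4 kb after that of CEACAM6 ends, was listed at 0.21, 0.16 and 0.09 TPM in rhLUM libraries and at 0 in all 3 Ctrl libraries. The highest value of any of the 7 was 0.21 TPM in rhLUM and 0.07 TPM in Ctrl. Of 10 pregnancy-specific glycoprotein genes of the same locus, 8 were listed at 0 throughout and the highest value was 0.17 TPM. Of 12 CEACAM pseudogenes, 11 were listed at 0 throughout.

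Human granulocytes also carry CEACAM1, CEACAM3, CEACAM6 and CEACAM8. The 10 neutrophil markers, which include CEACAM3 and CEACAM8, summed to 0.19 to 0.38 TPM in rhLUM libraries and 0.17 to 0.67 TPM in Ctrl. Of these, FCGR3B, MPO, CXCR1, S100A12 and CAMP were listed at 0 in all 6 libraries. The pan-leukocyte marker PTPRC did not exceed 0.23 TPM. The 10 leukocyte markers nonetheless summed to 298 to 301 TPM in rhLUM and 214 to 216 TPM in Ctrl, nearly all from LYZ and CD68, and 2 of 10 had a mean of at least 1 TPM. Endothelial markers (3 of 6 at a mean of at least 1 TPM) summed to 26.9 to 31.8 TPM in rhLUM and 21.7 to 23.0 TPM in Ctrl. Most of that sum was PECAM1, at 25.3 ± 2.43 TPM in rhLUM and 16.4 ± 0.29 TPM in Ctrl, while CDH5 went the other way, at 0.45 ± 0.053 TPM in rhLUM and 3.10 ± 0.34 TPM in Ctrl. Fibroblast markers (5 of 8) summed to 102 to 113 TPM in rhLUM and 38.2 to 41.9 TPM in Ctrl. LUM, the gene of lumican itself, made up most of this, at 95.5 ± 3.54 TPM in rhLUM and 24.7 ± 1.56 TPM in Ctrl. The other 7 fibroblast markers summed to 10.0 to 13.7 TPM in rhLUM and 14.4 to 15.4 TPM in Ctrl. The lower sum came from DCN, at 1.26 ± 0.32 TPM in rhLUM and 7.96 ± 0.35 TPM in Ctrl. Means of COL1A1 (5.11 TPM in rhLUM and 3.3 TPM in Ctrl) and COL1A2 (2.59 and 1.65 TPM) were higher in rhLUM. Those of COL3A1, PDGFRA and PDGFRB were also higher, with groups that overlapped. The mean of ACTA2 was slightly lower (0.71 TPM in rhLUM and 0.76 TPM in Ctrl), again with overlap. Erythroid markers (1 of 5) summed to 2.09 to 2.91 TPM in rhLUM and 2.95 to 3.50 TPM in Ctrl. In xenografts of a cell line, blood, vessel and stromal cells would come from the host animal, which the labels do not name. Their part in the CEACAM values was not tested. The labels give a hepatocellular origin. Of 8 hepatocyte markers, 7 had a mean of at least 1 TPM, and all 8 summed to 1346 to 1374 TPM in rhLUM and 772 to 791 TPM in Ctrl. ALB (825 ± 15.4 TPM in rhLUM and 289 ± 3.08 TPM in Ctrl) and TF (251 ± 15.5 and 62.5 ± 3.50 TPM) carried the higher sum, while SERPINA1 was lower (208 ± 5.32 TPM in rhLUM and 379 ± 2.27 TPM in Ctrl). The rest were at far lower levels. Means in rhLUM and Ctrl were 28.6 and 31.2 TPM for AFP, 25.9 and 11.8 TPM for HNF4A and 10.9 and 5.60 TPM for APOB. For TTR they were 5.65 and 2.30 TPM, and for APOA1 1.21 and 0.323 TPM. Mitochondrial genes held 14.3 to 14.5% of TPM in rhLUM and 20.5 to 20.7% in Ctrl.

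Paralogues of this kind can share reads. Of the distinct 151-base stretches of member transcripts, the length of 1 read, none of CEACAM1, CEACAM6, CEACAM7 or CEACAM19 stood in a transcript of another gene of GENCODE release 29. For CEACAM5 10.6% did, all in AC243967.1, a gene model that spans CEACAM5 and CEACAM6 and has no value here. At 75 bases the shares were 1.42% for CEACAM1, 13.9% for CEACAM5, 2.69% for CEACAM6 and 0.853% for CEACAM19, and none for CEACAM7. CEACAM3 shared such stretches with CEACAM1 and CEACAM5, and CEACAM8 with CEACAM1 and CEACAM6. The part of shared reads in the low CEACAM3 values was not tested. CEACAM19 shared them with the overlapping gene PVR. PVR, a receptor of the nectin family, stood at 57.8, 58.2 and 57.8 TPM in rhLUM and 33.5, 30.8 and 33.2 TPM in Ctrl, and thus was higher in rhLUM where CEACAM19 was lower. LIPE-AS1, antisense to CEACAM1, was listed at 0, 0.52 and 0.99 TPM in rhLUM and 1.43, 0.25 and 0 TPM in Ctrl. The sources used here do not say if strand was used in counting, nor if reads of the host animal were removed, and the part of host reads in CEACAM1, which has a mouse counterpart, was not tested.

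Genes around the members moved both ways. Of 44 tested protein-coding genes starting within 500 kb of a member's start, 14 rose and 14 fell, against the 44.5% and 22.3% of all genes given above, and their median log2 fold change was -0.03. After median-of-ratios scaling 9 rose and 20 fell, or 20.5% and 45.5%, against 34.4% and 30.8% of all genes. Before the CEACAM7 end of the cluster, the branched-chain keto acid dehydrogenase subunit BCKDHA rose by 1.07 (adjusted p = 3.69e-05), the cytokine TGFB1 by 0.58 (adjusted p = 1.02e-04) and the RNA-binding HNRNPUL1 by 0.50 (adjusted p = 1.86e-05). After CEACAM6, the nearest tested gene was RPS19, a ribosomal protein gene 109 kb from the CEACAM6 start, which fell by 0.21 (adjusted p = 3.68e-05). CXCL17, a mucosal chemokine gene, lies at -118 kb from the GENCODE start of CEACAM1 (toward lower coordinates). CXCL17 fell by 1.37, to 5.61 ± 0.74 TPM in rhLUM against 16.0 ± 1.73 TPM in Ctrl (adjusted p = 3.01e-05).

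Around CEACAM19, PVR rose by 0.82 (SE 0.04, adjusted p = 3.59e-06), while BCL3, a partner of NF-kB subunits, fell by 0.80 (adjusted p = 8.78e-06) and the laminin receptor gene BCAM by 0.98 (adjusted p = 4.92e-06). On log2(TPM + 1) the fold changes of the 44 genes ran from -1.37 in CXCL17 to 1.21 in AXL, a receptor tyrosine kinase gene chosen here after its value was seen. The pseudocount shrinks such values for genes of low level. As a plain ratio of means AXL was 5.20, at 2.37 ± 0.24 TPM in rhLUM and 0.457 ± 0.070 TPM in Ctrl, above the 3.73 of CEACAM6 and the 2.99 of CEACAM5, and the lowest ratio was 0.329, in CBLC (named after its value was seen). On log2(TPM + 1) CEACAM6, CEACAM5 and CEACAM7 lay outside the range of the 44, and CEACAM1 and CEACAM19 inside it.

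**Figure D4:**
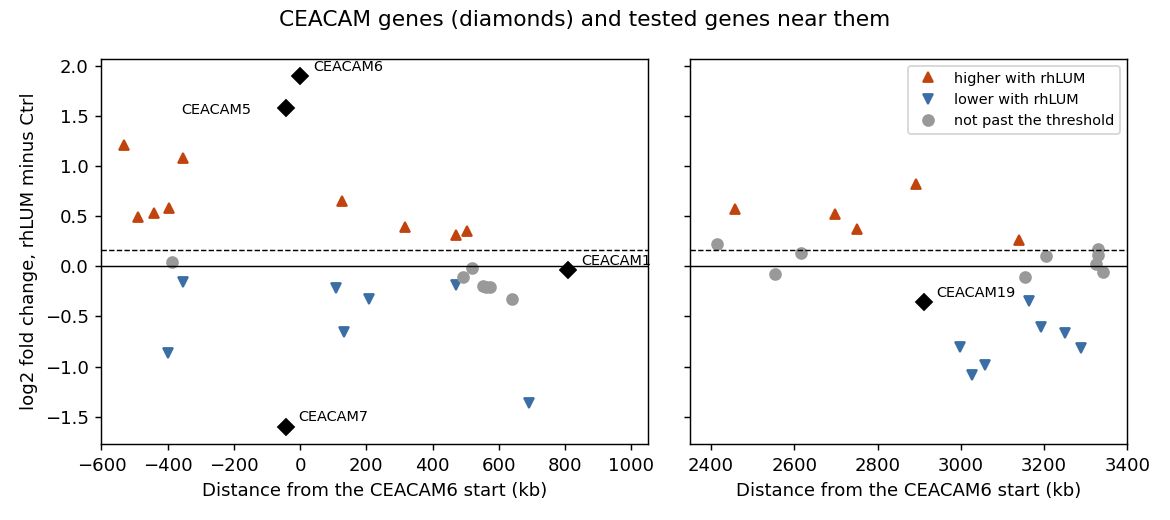
Log2 fold change, rhLUM minus Ctrl (vertical axis), against distance from the CEACAM6 start in kb (horizontal axes, 2 stretches of chromosome 19) for the 44 neighbouring genes, marked by the limma call, and the 5 CEACAM genes as diamonds. Neighbours spread on both sides of 0, between -1.37 and 1.21, and the dashed line is the median of all genes at 0.16.

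Genes listed as binding CEACAM proteins or passing on their signal mostly rose. Of 31 listed, 26 were tested, 19 rose and 5 fell (18 and 7 after median-of-ratios scaling), and the median was 0.53, against 0.16 over all genes. That is 73.1% higher and 19.2% lower, against 44.5% and 22.3% of all genes tested. After scaling it was 69.2% and 26.9%, against 34.4% and 30.8%. The list was chosen with earlier results of these data known, so nothing is read from these shares. The phosphatases that the tyrosine motifs of CEACAM1 recruit went opposite ways. PTPN11, which encodes SHP-2, rose by 1.18, with 81.6 ± 0.38 TPM in rhLUM and 35.4 ± 0.23 TPM in Ctrl (adjusted p = 1.83e-07). PTPN6, which encodes SHP-1, fell by 0.62, with 22.3 ± 2.37 TPM in rhLUM and 34.9 ± 3.62 TPM in Ctrl (adjusted p = 9.04e-04). Both directions were kept after scaling (1.02 and -0.78).

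Among adhesion partners, the integrin subunit ITGB1 rose by 0.79 (adjusted p = 1.38e-07) and ITGA5 fell by 0.69 (adjusted p = 1.71e-05). HNRNPM, an RNA-binding protein also described as a receptor for CEA on liver macrophages, rose to 218 ± 2.14 TPM in rhLUM, against 112 ± 1.08 TPM in Ctrl (log2 fold change 0.95, adjusted p = 1.48e-07). The membrane-binding ANXA2 rose by 0.40 (adjusted p = 3.43e-07). The asialoglycoprotein receptor, with which hepatocytes clear glycoproteins from blood, fell in both subunits: ASGR2 by 1.36 (adjusted p = 7.21e-05) and ASGR1 by 0.85 (adjusted p = 3.14e-04). Levels were low, at 4.04 ± 0.86 TPM in rhLUM and 11.8 ± 0.17 TPM in Ctrl for ASGR2. ASGR1 was at 1.72 ± 0.21 TPM in rhLUM and 3.88 ± 0.068 TPM in Ctrl, so the size of both falls depends on the pseudocount. HAVCR2, which encodes the immune checkpoint receptor TIM-3 that binds CEACAM1, stayed under 1 TPM in each library.

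The GPI anchor of CEACAM5, CEACAM6 and CEACAM7 is built stepwise in the endoplasmic reticulum and then attached by a transamidase complex. Of 30 anchor genes 28 were tested, 13 rose and 8 fell, with a median of 0.09. These shares, 46.4% and 28.6%, were near the 44.5% and 22.3% of all genes. After median-of-ratios scaling 10 rose and 10 fell, or 35.7% each, against 34.4% and 30.8% of all genes. The number that fell was 4 without Ctrl A, and 5 without Ctrl C, without rhLUM A or without rhLUM B. PIGN, which adds a phosphoethanolamine to the anchor, rose by 1.99 (adjusted p = 2.75e-06), and DPM1, which makes its mannose donor, by 0.76 (adjusted p = 4.41e-06). PIGZ, which adds a side mannose, fell by 0.76 (adjusted p = 2.51e-04) and the mannosyltransferase gene PIGB by 0.63 (adjusted p = 1.73e-04). PIGL, a deacetylase of an early step, fell by 0.46 (adjusted p = 0.00127) and PIGG by 0.16 (adjusted p = 0.0101).

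The transamidase subunits, a subset chosen after their values were seen, all rose: PIGK by 1.07, PIGS by 1.27, PIGT by 0.80, PIGU by 0.78 and GPAA1 by 0.22. After median-of-ratios scaling 4 of the 5 passed, and GPAA1 was the exception with 0.05. Over all genes 44.5% rose, and 34.4% after that scaling. Since the subset was picked with its values seen, nothing is read from these counts. Other GPI-anchored surface proteins went both ways, with 6 higher and 4 lower of 14 tested (28 of 30 found) and a median of 0.11, or 42.9% and 28.6% against 44.5% and 22.3% of all genes. NT5E, the ectonucleotidase CD73, rose to 174 ± 1.43 TPM in rhLUM, against 56.2 ± 2.30 TPM in Ctrl (adjusted p = 1.13e-07). CD109, a protein that binds TGF-beta, rose to 34.3 ± 0.57 TPM in rhLUM, against 14.3 ± 1.01 TPM in Ctrl. The proteoglycan GPC1 (1.06) and the coagulation inhibitor TFPI (0.56) also rose. BST2, an interferon-induced protein, fell by 1.60, a size that rests on the pseudocount, since it was at 0.43 ± 0.28 TPM in rhLUM and 3.32 ± 0.62 TPM in Ctrl. LY6E fell by 0.58 and the urokinase receptor gene PLAUR by 0.82. CD24 fell by 0.07 (adjusted p = 0.0167).

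Factors reported at CEACAM promoters included 11 that rose and 5 that fell of 21 tested (24 listed), with a median of 0.21. These were 52.4% and 23.8% of them, against the 44.5% and 22.3% of all genes. After median-of-ratios scaling 10 rose and 6 fell, or 47.6% and 28.6%, against 34.4% and 30.8% of all genes. USF1, which binds E boxes, fell by 0.39, with 38.6 ± 2.67 TPM in rhLUM and 50.8 ± 2.62 TPM in Ctrl (adjusted p = 0.00101). Its partner USF2 was at 91.1 ± 7.92 TPM in rhLUM and 82.5 ± 5.48 TPM in Ctrl and did not pass (adjusted p = 0.135, named after its value was seen). SP1 and SP3, which bind GC boxes, rose by 0.43 and 0.47 (adjusted p = 1.81e-05 and 1.24e-05). The liver regulator HNF4A rose by 1.07 (adjusted p = 4.57e-06) and the TGF-beta mediator SMAD4 by 1.61 (adjusted p = 5.14e-06). IRF1, an interferon regulatory factor, fell by 0.39 (adjusted p = 0.00119), STAT3 by 0.20 (adjusted p = 0.00625) and ATF3 by 0.30 (adjusted p = 7.09e-04).

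CEACAM1 is spliced to long and short cytoplasmic tails under the control of RNA-binding proteins. Of 9 tested splicing factors 7 rose and 1 fell, but after median-of-ratios scaling 3 rose and 3 fell, against 44.5% higher and 22.3% lower of all genes before it and 34.4% and 30.8% after it. Of the 8 calls, 4 stayed in the same direction after scaling, those of HNRNPM, RBFOX2, SRSF1 and SRSF2. The calls of HNRNPA1 and HNRNPA2B1 reversed. HNRNPA1 went from 0.07 to -0.10 (adjusted p = 0.00128 after scaling) and HNRNPA2B1 from 0.10 to -0.07 (adjusted p = 0.0176 after scaling). RBFOX2 rose by 1.24 and SRSF1 by 0.43 (adjusted p = 5.53e-06 and 2.04e-06), and SRSF2 fell by 0.48 (adjusted p = 5.01e-06). HNRNPL stood at 0.18 as deposited (adjusted p = 2.06e-04) and at 0.01 after scaling (adjusted p = 0.559).

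**Figure D5:**
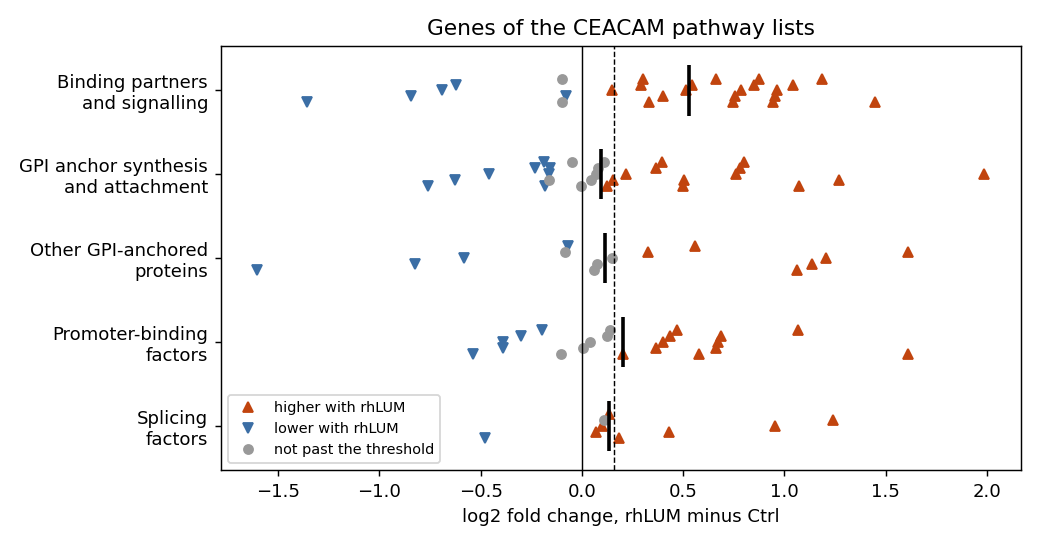
Log2 fold change, rhLUM minus Ctrl (horizontal axis), of each tested gene in 5 lists (rows), marked by the limma call, with thick lines for list medians and a dashed line for the median of all genes at 0.16. The median of binding partners and signalling genes is 0.53, and those of the other 4 lists lie between 0.09 and 0.21.

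Some other genes had patterns close to those of the members over the 6 libraries. Likeness was measured as the Euclidean distance between profiles of log2(TPM + 1), each centred on its own mean, and the points share their libraries and a group difference that most genes have. Nearest to CEACAM6 were RAP1GAP (distance 0.07), GULP1 (0.09) and ITIH2 (0.09), each with r of 0.999 or more. Nearest to CEACAM5 were FMO5 (0.06), CERS6 (0.07) and BCAS1 (0.07), again with r of 0.999 or more. CEACAM5 itself came 72 in the order for CEACAM6, at a distance of 0.40. Nearest to CEACAM7 were MMP1 (0.12), FGA (0.13) and SAT1 (0.14), with r of 0.998 to 0.999, a likeness that rests on the pseudocount of 1, since CEACAM7 passed the filter through Ctrl alone. For CEACAM1 they were NUDT2 (0.05), CASD1 (0.07) and BNIP2 (0.08), with r of 0.910 to 0.955, and for CEACAM19 RCOR3 (0.13), FSBP (0.14) and ZNF579 (0.15), with r of 0.970 to 0.989.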

How the data were processed

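RNA was measured in 6 xenograft libraries, 3 rhLUM and 3 Ctrl, grouped by the labels. Per the labels' protocols, poly-A RNA was made into libraries with 10 PCR cycles and read as pairs of 151 bases. STAR 2.7.8, RSEM 1.2.31 and GRCh38 were used, per the submitters' processing notes. The authors deposited TPM, 1 table per library, with symbols only. TPM sums to 1000000 and keeps no depth, so depth is unknown and no counting interval is given. Rows sharing a symbol (2210) were left out.

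Group means of log2(TPM + 1) were compared in limma (version 3.58.1, R 4.3.3), trend on, no covariate, over 14781 genes averaging 1 TPM or more. Tests were two-sided, adjusted by Benjamini-Hochberg over all genes, with a threshold of 0.05. An exact permutation of 3 against 3 cannot go below 0.1. The fit was tested on simulated data. Promoters were aligned with Biopython 1.88. Positions and transcripts came from GENCODE release 29. The 5 members and all lists were chosen with earlier results of these data known. Named genes were the members, up to 4 genes per list and direction with the smallest p, and the 3 genes most like each member. Some further genes, among them HNRNPA1, HNRNPA2B1 and HAVCR2, were named outside this rule. Alternatives were other scalings, pseudocounts and filters, a replicate block, no trend, and leaving out each library. Protein sequences were not used here.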

Additional observations from a re-analysis of the deposited data

How the results depend on the processing

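Scaling moved the members' log2 fold changes together. Median-of-ratios scaling gave -0.21 for CEACAM1, 1.41 for CEACAM5 and 1.73 for CEACAM6, and rescaling without mitochondrial genes gave -0.15, 1.46 and 1.78. A pseudocount of 0.1 gave -3.82 for CEACAM7. With a mean of at least 5 TPM required, CEACAM7 and CEACAM19 could not be fitted and 0 members were lower. With no filter 1 was lower, and 1 other CEACAM gene, CEACAM3, was higher. The count of members past the threshold was recomputed under these settings after seeing the data. Leaving out each library gave -0.10 to 0.0019 for CEACAM1 (above 0 only without Ctrl B), 1.56 to 1.59 for CEACAM5, 1.89 to 1.90 for CEACAM6, -1.63 to -1.55 for CEACAM7 and -0.44 to -0.26 for CEACAM19, with 1 to 2 members lower. GPI anchor genes that fell numbered 5 with no filter and 4 to 8 on leaving out a library. Splicing factors that rose numbered 3 after median-of-ratios scaling, 4 without mitochondrial genes and 4 in limma without the trend, and those that fell 3 and 2 under the first pair. Neighbouring genes that rose numbered 9 after median-of-ratios scaling. Over all genes 6571 rose and 3299 fell (66.6% higher), 5083 and 4555 after median-of-ratios scaling (52.7%) and 5574 and 4115 without mitochondrial genes (57.5%). The causes of these shifts were not tested.

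Samples of the same replicate letter did not deviate together (correlations of 0.03, -0.02 and 0.08 for A, B and C), so the letters were not taken as pairs. With a replicate block 6429 genes rose and 3219 fell, and 2 members were higher and 2 lower, as without it. Depth is unknown, so how much of the spread of CEACAM7 and CEACAM19 is counting error cannot be said.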

Other observations

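Some listed genes, named here after their values were seen, were at or near 0 in these tumours. GPC3, a GPI-anchored proteoglycan often found in liver cancer, did not exceed 0.29 TPM in rhLUM or 0.15 TPM in Ctrl. The intestinal factor CDX1 was listed at 0 in all 6 libraries, while CDX2 was at 2.72 ± 0.52 TPM in rhLUM and 1.32 ± 0.12 TPM in Ctrl (SD, n = 3, adjusted p = 0.00447).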
